A study of Homo sapiens with 26 samples.

Results

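The 7 genes described here are ESPN, CLCA1, TNXB, COL2A1, ZAP70, GPX8 and PTPN5, taken by their Ensembl identifiers from the 57773 genes of the count table. They are non-globin genes chosen by their measured difference between 5-azacytidine and its vehicle at 264 h in TET2-knockout or wild-type cells. Their 264 h differences, and the change from 72 h to 264 h, are therefore given as a description with no test. The 72 h, pre-treatment and vehicle comparisons were not used in that choice and were tested.

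TF-1 is a human line grown from an erythroleukemia and kept alive by GM-CSF, and the study measured its polyadenylated RNA by bulk sequencing. The knockout (KO, TET2 -/-) was represented by clones F4 and A12, and the wild type (WT, TET2 +/+) by clones A7 and C4. Cells received 200 nM 5-azacytidine (Aza) in dimethylsulfoxide (DMSO) or DMSO alone on 3 consecutive days, and RNA was taken before treatment, at 72 h and at 264 h after the first dose. Batch 1 held 20 libraries, 1 per clone and condition, and batch 2 held 6 libraries of the KO clones without Aza, of which 2 carry mixed pre-treatment and DMSO labels at time 0. After the batch 1 DMSO library of F4 at 72 h was set aside, since its label says that it failed quality control, 25 libraries were left: 2 per group, except 3 for KO DMSO at 72 h and 4 for KO DMSO at 264 h. Every genotype thus rests on 2 clones of 1 cell line, and p-values measure the spread between these libraries, since nothing says that libraries of 1 clone came from separate cultures. The F4 comparison at 72 h sets an Aza library of batch 1 against a DMSO library of batch 2.

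5-Azacytidine is a cytidine analogue that is built into nucleic acids and traps DNA methyltransferases, so that methylation is lost as cells divide, and TET2 is an enzyme that oxidises methylated cytosine as a step towards its removal. A gene can respond while the drug is present, can keep a raised level after it is gone, or can change only later as cells shift their state. TF-1 cells sit between the myeloid and erythroid lineages, and none of the 7 genes is known chiefly as a gene of those lineages. Espin (ESPN) bundles actin in stereocilia and microvilli, CLCA1 is a protein secreted by goblet cells, tenascin-X (TNXB) is a matrix glycoprotein of connective tissue, and COL2A1 is the main collagen of cartilage. ZAP70 is the tyrosine kinase that T cells recruit to the engaged antigen receptor, GPX8 is a peroxidase of the endoplasmic reticulum, and PTPN5 is a tyrosine phosphatase known mainly from striatal neurons.

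Library totals ran from 24992192 to 40187322 counts (median 27477937), so that a floor of 3 counts stood for 0.0747 to 0.120 CPM (counts scaled to a common library total). All 7 genes passed the filter on low counts, with between 8 and 4005 counts per library. TF-1 markers such as CD34 (217 to 493 CPM), GATA1 and GATA2 were present, while CSF2RA, a subunit of the GM-CSF receptor, had 0 counts in every library. That 0 is not read as absence of the receptor, since whether reads with more than 1 place in the genome were dropped in counting was not tested. The TET2 mRNA was 33.5 CPM ± 6.54 (SD, n = 15) in KO and 27.9 ± 2.28 (SD, n = 10) in WT libraries, so its level does not check the genotype. The difference between the WT clones over 3000 variable genes ran the other way before treatment (r across genes from -0.52 to -0.48 with later time points) than among the later time points (0.45 to 0.52), so both WT pre-treatment libraries go against their clone labels. They also enter the shared fit of all groups. Some values and counts of calls without them are given below, while counts among listed and neighbouring genes are given with them alone.

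Per kilobase of exon, the median level over the 25 libraries was 6.03 CPM/kb for COL2A1, 4.68 for PTPN5, 1.83 for GPX8, 1.71 for CLCA1, 0.63 for ZAP70, 0.45 for ESPN and 0.11 for TNXB. Several defining markers of the tissues these genes are known from were at or near 0. SOX9 and HAPLN1 of chondrocytes, MUC2, AGR2 and TFF3 of goblet cells, TRBC2 and KLRD1 of lymphocytes, and SYT1 and GRIN2B of neurons never exceeded 2 counts. Of the connective tissue markers, DCN and COL1A2 likewise never exceeded 2 counts. Markers of these tissues that reached over 1 CPM in some library were OTOF (122 to 201 CPM) and MYO7A (0.19 to 1.66) of hair cells, KRT8 of epithelia (29.4 to 61.4), CD3D of T cells (0.53 to 61.4), COL11A2 (4.18 to 9.26) and COMP (0.08 to 1.35) of cartilage, and COL1A1 (0.39 to 6.04) and PDGFRA (0.12 to 1.55) of connective tissue. In bulk RNA, a change in the share of cells that express a gene and a change in RNA per cell cannot be told apart.

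**Figure D1:**
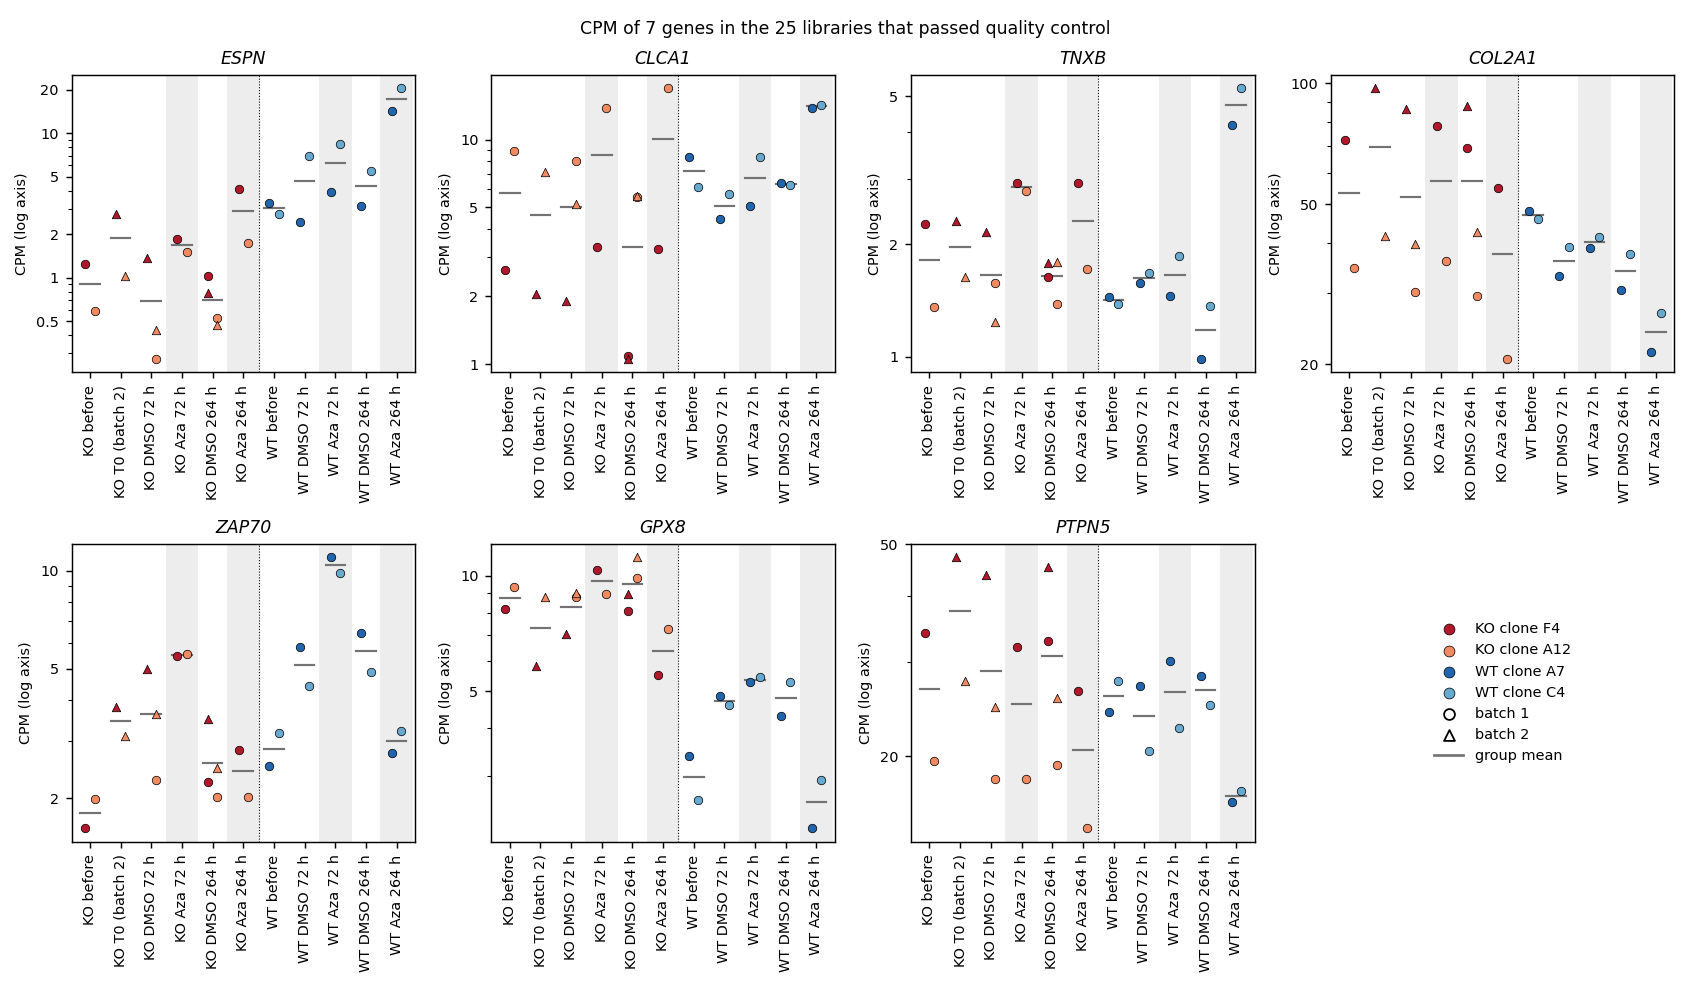
Level of each gene in CPM (vertical log axis) in each of the 11 groups (horizontal axis), 1 point per library that passed quality control, coloured by clone, with circles for batch 1, triangles for batch 2, a grey bar for the group mean and grey bands behind the Aza groups. ESPN and TNXB were highest in WT Aza at 264 h, ZAP70 was highest in WT Aza at 72 h, and COL2A1 and PTPN5 were highest in clone F4.

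The stretches before 4 of the genes are shown because CpG sites are where the drug can lower methylation; no methylation was measured here. RefSeq promoter windows (GRCh38.p14) matched 5 of the 7 genes, all but ESPN and COL2A1. The 2 TNXB windows, with 4 and 10 CpG sites, are not printed. Each sequence holds the 250 bases before the outermost start in the gene's direction of transcription, with CpG sites in capitals.
CLCA1: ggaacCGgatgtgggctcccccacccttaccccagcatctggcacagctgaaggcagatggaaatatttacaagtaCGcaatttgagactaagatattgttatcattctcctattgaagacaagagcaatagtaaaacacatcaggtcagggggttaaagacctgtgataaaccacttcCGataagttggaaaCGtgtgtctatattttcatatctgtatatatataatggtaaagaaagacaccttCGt
ZAP70: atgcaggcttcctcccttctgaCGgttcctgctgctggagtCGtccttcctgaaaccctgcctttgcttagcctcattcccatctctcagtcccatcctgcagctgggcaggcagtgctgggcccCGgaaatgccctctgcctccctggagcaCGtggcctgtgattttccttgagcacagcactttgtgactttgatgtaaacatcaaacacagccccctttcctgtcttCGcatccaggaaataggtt
GPX8: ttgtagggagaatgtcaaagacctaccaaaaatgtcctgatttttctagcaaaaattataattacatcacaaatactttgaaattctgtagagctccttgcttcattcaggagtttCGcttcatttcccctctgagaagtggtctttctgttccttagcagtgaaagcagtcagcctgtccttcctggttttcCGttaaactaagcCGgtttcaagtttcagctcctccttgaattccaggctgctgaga
PTPN5: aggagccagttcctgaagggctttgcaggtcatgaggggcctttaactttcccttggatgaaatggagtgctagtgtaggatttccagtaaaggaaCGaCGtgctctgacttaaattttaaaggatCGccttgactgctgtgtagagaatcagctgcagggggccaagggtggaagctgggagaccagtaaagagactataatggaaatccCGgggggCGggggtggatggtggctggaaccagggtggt
These windows lie at chr1:86468677-86468926 (plus strand) for CLCA1, chr2:97713326-97713575 (plus) for ZAP70, chr5:55159921-55160170 (plus) for GPX8 and chr11:18792722-18792971 (minus) for PTPN5. The printed windows of CLCA1, ZAP70 and PTPN5 hold 5 CpG sites each and that of GPX8 holds 3, against a median of 11 over 35116 RefSeq windows of the same length. A share of 34.3% of all windows has fewer CpG sites than CLCA1, ZAP70 and PTPN5, and 22.9% has fewer than GPX8. A further PTPN5 window, at a start downstream, holds 26 CpG sites, and 80.4% of all windows have fewer. The 2 further ZAP70 windows hold 7 and 11 CpG sites, and 41.1% and 49.7% of all windows have fewer. The motif GATAA, searched on both strands, matches 3 times before CLCA1 and not before ZAP70, GPX8 or PTPN5, and occurs in 20.4% of all windows; a match in the letters is not a binding site.

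At 72 h, when the last dose was recent, ZAP70 was called higher with Aza in both genotypes and CLCA1 and TNXB in the KO clones. The KO calls were lost in some alternatives given below. The Aza effect at 72 h was not called as different between KO and WT for any of the 7 genes. In KO, 3 of the 7 genes were called higher and none lower at an adjusted p below 0.05 in edgeR's quasi-likelihood test, where 20.1% of all 18391 genes tested were called (11.6% higher and 8.47% lower). In WT, only ZAP70 was called, against 18.3% of all genes (9.26% higher and 9.04% lower). At 264 h the picture among the genes was different: ESPN, CLCA1 and TNXB stood above DMSO and COL2A1, GPX8 and PTPN5 below it in the fitted values of both genotypes, while ZAP70 stood below DMSO in WT alone. The same fit called 0.0979% of all genes at 264 h in KO (0.0816% higher and 0.0163% lower) and 0.5% in WT (0.364% higher and 0.136% lower). In KO, 2 of the 7 genes were among those called higher (ESPN and CLCA1) and 1 among those called lower (COL2A1), and in WT 3 were higher and 4 lower, which restates how they were chosen. In KO, the fitted log2 fold change was -0.43 (SE 0.09) for COL2A1, -0.53 (SE 0.16) for GPX8 and -0.35 (SE 0.10) for PTPN5. The calls at 264 h are not read as a difference between these genes. For the change from 72 h to 264 h, 2 genes were called in KO, both lower, beside 13.1% of all genes (5.48% higher and 7.67% lower), and 6 in WT, 2 higher and 4 lower, beside 6.83% (4% higher and 2.83% lower); nothing is read from these counts, since the 264 h difference is part of them.

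**Figure D2:**
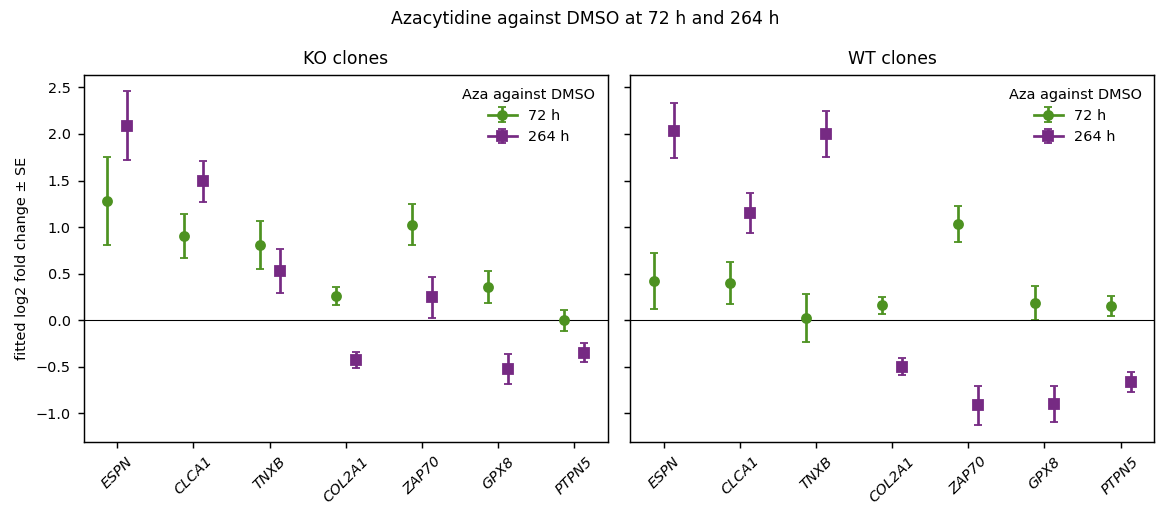
Fitted log2 fold change of Aza against DMSO (vertical axis, bars ± SE) for the 7 genes at 72 h (green circles) and 264 h (purple squares) in the KO clones (left) and WT clones (right). ZAP70 was near 1.03 at 72 h in both genotypes and at -0.92 in WT at 264 h, while TNXB in WT went from 0.02 to 2.00.

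ESPN (ENSG00000187017.10, chr1:6484848-6521430, plus strand, hg19) lies on distal 1p. At 264 h its level was 14.2 CPM in A7 and 20.5 CPM in C4 with Aza, against 3.14 and 5.5 CPM with DMSO. In KO it was 4.09 CPM in F4 and 1.75 CPM in A12 with Aza, against 1.03 and 0.79 CPM in the F4 DMSO libraries of batches 1 and 2 and 0.52 and 0.47 CPM in those of A12. Aza and DMSO libraries did not overlap within either genotype, and every clone was higher with Aza. The fitted log2 fold change was 2.09 (SE 0.37) in KO and 2.04 (SE 0.29) in WT, which is 4.25-fold and 4.10-fold. The summed level of the 5 hair cell markers, nearly all of it OTOF, was 129 to 148 CPM with Aza and 137 to 147 CPM with DMSO in KO and 144 to 169 and 149 to 174 CPM in WT, and ATOH1 and POU4F3 stayed at or below 0.17 CPM.

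At 72 h, ESPN was 3.95 CPM (A7) and 8.44 CPM (C4) with Aza against 2.44 and 6.98 CPM with DMSO. In KO it was 1.85 CPM (F4) and 1.5 CPM (A12) with Aza, against 1.36 CPM in F4 and 0.27 and 0.44 CPM in A12 with DMSO. Each clone was higher with Aza, A7 by 1.62-fold and C4 by 1.21-fold, and the WT groups overlapped. Neither fitted value was called: the log2 fold change was 1.28 (SE 0.48, adjusted p = 0.0663) in KO and 0.42 (SE 0.30, adjusted p = 0.383) in WT. The KO value rests on few reads, since A12 had 8 and 11 ESPN counts in its DMSO libraries. It was called in 9 of 19 alternatives, among them DESeq2 (1.35, adjusted p = 0.0179) and without the WT pre-treatment libraries (1.21, adjusted p = 0.0193). Over the 19 alternatives the KO log2 fold change ran from 0.04 to 2.15, so its size depends on the libraries and settings used.

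The course from 72 h to 264 h differed between the KO clones for ESPN. In F4 the log2 ratio of Aza over DMSO was 0.42 at 72 h and 1.92 to 2.28 at 264 h, over the DMSO libraries of both batches at 264 h. In A12 it was 1.63 to 2.19 at 72 h and 1.62 to 1.76 at 264 h, likewise over both batches. The fitted change from 72 h to 264 h was 0.81 (SE 0.52) in KO, -0.26 in batch 1 alone, -0.23 without F4 and 1.95 without A12, and it was 1.62 (SE 0.41) in WT and 1.03 without the C4 DMSO library of 72 h.

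ESPN overlaps TNFRSF25, a death receptor gene on the other strand, and the antisense transcript ENSG00000231868, and the authors' counting command sets no strand, so reads of overlapping genes cannot be told apart by strand. TNFRSF25 had a log2 fold change of 1.08 (SE 0.25, adjusted p = 0.00956) at 72 h in KO and 0.36 (adjusted p = 0.284) in WT, and was not called at 264 h (0.57 in KO and 0.24 in WT). The antisense transcript never exceeded 21 counts. HES2, a transcriptional repressor gene that starts 118 bases away on the other strand and was chosen after its values were seen, had log2 fold changes of 3.99 (SE 1.19, adjusted p = 0.0188) in KO and 1.55 (SE 0.55, adjusted p = 0.0523) in WT at 72 h, and of 2.41 and 1.84 at 264 h, where neither was called. It had at most 57 counts in a library.

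The genes whose log2 CPM was most like that of ESPN over the 25 libraries were the globins HBG2 (Pearson r = 0.961) and HBB (0.958), and MFSD2B (0.955), a lipid transporter of red cells and platelets. These libraries share clones, batches and depth, so the correlation is a description with no test. After the mean of each clone within each batch was taken out, r was 0.921, 0.942 and 0.900. HBB was 165 CPM (A7) and 114 CPM (C4) in WT Aza at 264 h against 44.7 and 34.9 CPM in DMSO, and 41.4 and 27.3 CPM in F4 and A12 with Aza against 5.23 to 13.8 CPM in the 4 KO DMSO libraries. These genes, and those named below for likeness to the other 6, were picked over libraries that include the Aza libraries, so their Aza differences follow in part from that choice and are given with no test. At 264 h the fitted log2 fold change was 2.01 in KO and 1.80 in WT for HBB, and 0.61 and 1.03 for MFSD2B.

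**Figure D3:**
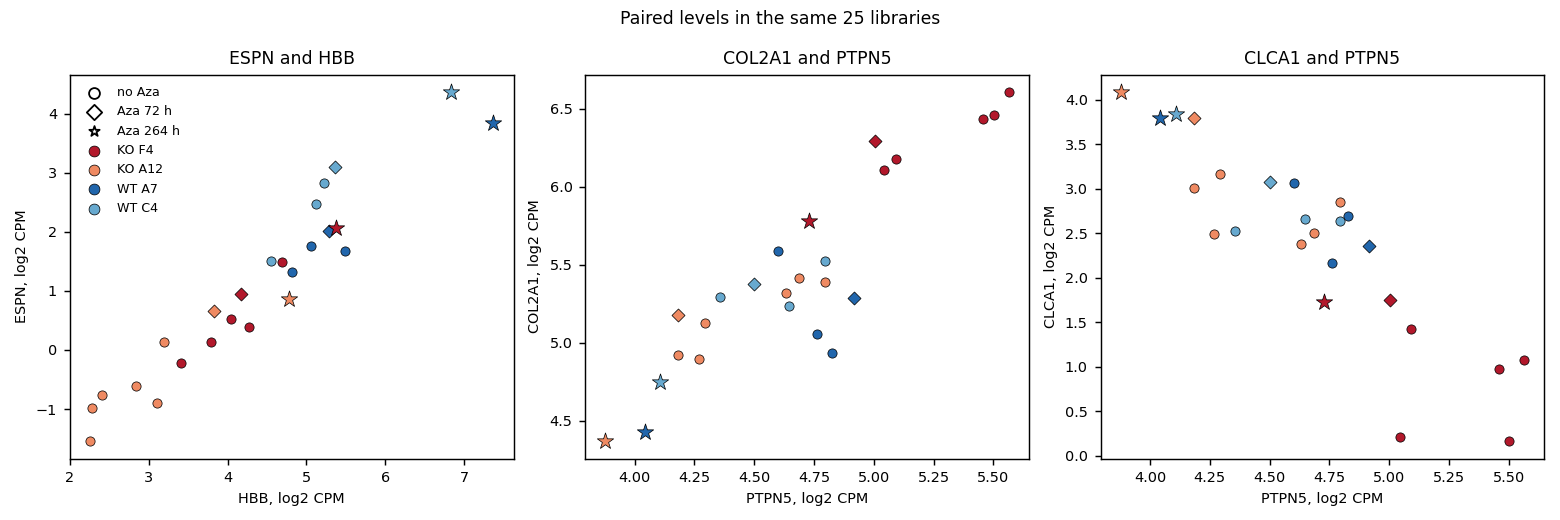
Log2 CPM of ESPN against HBB, COL2A1 against PTPN5 and CLCA1 against PTPN5, 1 point per library (25), coloured by clone, with diamonds for Aza at 72 h, stars for Aza at 264 h and circles for libraries without Aza. ESPN and HBB follow 1 line across clones and treatments (r = 0.958), COL2A1 rises with PTPN5 (r = 0.900) and CLCA1 falls with it (r = -0.882). ESPN, COL2A1, PTPN5 and CLCA1 were chosen by their 264 h differences, which enter these r.

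CLCA1 (ENSG00000016490.11, chr1:86934051-86965972, plus strand, hg19) stood above DMSO in all 4 clones at 264 h, although the KO clones differ widely in level. At 264 h it was 3.25 CPM in F4 and 17.0 CPM in A12 with Aza, against 1.09 and 1.05 CPM in the F4 DMSO libraries and 5.57 and 5.59 CPM in those of A12. The WT clones were at 13.8 and 14.3 CPM with Aza and at 6.42 and 6.24 CPM with DMSO. Aza libraries stood above DMSO within every clone, while across the KO clones the groups overlap because A12 in DMSO exceeds F4 in Aza. The ratio was 2.99 to 3.09 in F4, 3.03 to 3.04 in A12, 2.15 in A7 and 2.29 in C4, and the fitted log2 fold change was 1.49 (SE 0.22) in KO and 1.15 (SE 0.22) in WT.

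At 72 h, CLCA1 was 3.31 CPM (F4) and 13.8 CPM (A12) with Aza, against 1.90 CPM in F4 and 8.00 and 5.14 CPM in A12 with DMSO. The WT clones were at 5.07 CPM (A7) and 8.36 CPM (C4) with Aza and at 4.43 and 5.70 CPM with DMSO. Each clone was higher with Aza, and the KO difference was called at a log2 fold change of 0.90 (SE 0.24, adjusted p = 0.00967). The WT value of 0.40 (SE 0.23, adjusted p = 0.261) was not called, and in the WT 72 h libraries alone it was (0.39, adjusted p = 0.0399), as was that of ESPN (0.43, adjusted p = 0.0322). The KO call was lost in 5 of 19 alternatives: in batch 1 alone (0.82, adjusted p = 0.0647), without F4 (0.91, adjusted p = 0.083), without A12 (0.73, adjusted p = 0.582), without the A12 Aza library (0.87, adjusted p = 0.108) and without the clone term (0.52, adjusted p = 0.81). The summed level of the 8 goblet and secretory cell markers, nearly all of it KRT8, was 59.3 to 60.7 CPM with Aza and 37.1 to 41.7 CPM with DMSO in KO at 72 h, and 50.8 to 61.7 and 33.2 to 35.3 CPM in WT. At 264 h these ranges overlapped in KO (40.8 to 47.1 and 36.6 to 50.7 CPM), and MUC2, AGR2 and TFF3 were at or near 0 throughout. The part of these markers in the CLCA1 levels was not tested.

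Among the libraries, CLCA1 was most like ABCG2 (r = 0.884), a drug efflux pump, APOL1 (0.860), an apolipoprotein, and RBM47 (0.833), an RNA-binding protein. Within clones and batches r was 0.610, 0.852 and 0.409. The fitted log2 fold changes of APOL1 were 0.57 and 0.50 at 72 h in KO and WT and 0.65 and 0.68 at 264 h. The neighbouring family member CLCA2 reached at most 17 counts and CLCA4 at most 2, and neither CLCA2 nor ODF2L, the nearest tested neighbours, was called in any of these comparisons.

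TNXB (ENSG00000168477.13, chr6:32008931-32083111, minus strand, hg19) lies in the major histocompatibility complex and shares sequence with the pseudogene TNXA, which had at most 7 counts in any library, so the TNXB level is uncertain where the authors' counting could not place reads of the shared stretch. At 264 h TNXB was 4.19 CPM (A7) and 5.26 CPM (C4) with Aza against 0.99 and 1.37 CPM with DMSO, and the WT groups did not overlap. In KO it was 2.92 CPM in F4 with Aza against 1.63 and 1.78 CPM with DMSO, and 1.71 CPM in A12 with Aza against 1.38 and 1.79 CPM with DMSO. F4 was thus higher with Aza than in both of its DMSO libraries, while A12 lay between its own 2. The fitted log2 fold change was 2.00 (SE 0.25) in WT and 0.53 (SE 0.24) in KO, and the KO value was 0.11 without F4 and 0.85 without A12.

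At 72 h TNXB was called in KO and not in WT. It was 2.92 CPM (F4) and 2.79 CPM (A12) with Aza against 2.15 CPM in F4 and 1.58 and 1.23 CPM in A12 with DMSO, and these groups did not overlap. In WT it was 1.45 CPM (A7) and 1.86 CPM (C4) with Aza and 1.58 and 1.67 CPM with DMSO. The log2 fold change was 0.81 (SE 0.26, adjusted p = 0.0265) in KO and 0.02 (SE 0.26, adjusted p = 0.972) in WT. The difference of the effect between the genotypes was 0.79 (SE 0.37, unadjusted p = 0.0412, adjusted p = 1), so it did not pass the test over all genes. The KO call was lost in 7 of 19 alternatives: with DESeq2 (0.80, adjusted p = 0.07), in batch 1 alone (0.64, adjusted p = 0.225), in the KO 72 h libraries alone (0.64, adjusted p = 0.236), without the clone term (adjusted p = 0.0808), without F4 (adjusted p = 0.0921), without A12 (0.54, adjusted p = 0.621) and without the A12 Aza library (0.58, adjusted p = 0.291). The summed level of 7 fibroblast and stromal markers was 3.55 to 7.40 CPM with Aza and 1.65 to 3.11 CPM with DMSO in KO at 72 h, and 2.81 to 2.83 and 1.25 to 1.503 CPM in WT at 72 h, where TNXB was not called. At 264 h it was 1.79 to 2.86 CPM with Aza and 1.86 to 3.50 CPM with DMSO in KO, which overlap, and 1.47 to 1.74 and 0.997 to 1.35 CPM in WT. Its part in the TNXB levels was not tested.

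Of the genes around TNXB, ATF6B, an endoplasmic reticulum stress factor, and CYP21A2, a steroid hydroxylase, overlap its body. ATF6B had log2 fold changes between -0.12 and 0.07 in the 4 comparisons of Aza with DMSO, and CYP21A2 had at most 13 counts; neither was called. The complement genes C4A and C4B, chosen after their values were seen, were called higher at 72 h in both genotypes, C4A at 1.84 in KO and 1.74 in WT and C4B at 1.75 and 1.84, and at 264 h they were between 0.26 and 0.65 and not called. C4A and C4B are near-identical copies, and how reads were divided among them is not known. The genes most like TNXB over the libraries were LGALS3 (r = 0.762), which encodes galectin-3, WFIKKN1 (0.700), a secreted protein with protease inhibitor domains, and ENSG00000269600 (0.661). LGALS3 had fitted log2 fold changes of 0.35 in KO and 1.2 in WT at 264 h.

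ZAP70 (ENSG00000115085.9, chr2:98330023-98356325, plus strand, hg19) had its highest level of any group in WT Aza at 72 h and lay below DMSO in WT at 264 h. At 72 h it was 11.0 CPM (A7) and 9.87 CPM (C4) with Aza against 5.82 and 4.42 CPM with DMSO. In KO it was 5.48 CPM (F4) and 5.54 CPM (A12) with Aza against 4.98 CPM in F4 and 2.27 and 3.63 CPM in A12 with DMSO. Every Aza library stood above every DMSO library of its genotype, and the log2 fold change was 1.03 in both, with an SE of 0.19 in WT (adjusted p = 0.000432) and 0.22 in KO (adjusted p = 0.00171).

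The WT call of ZAP70 held in all 18 alternatives, with log2 fold changes from 0.85 to 1.22 and adjusted p from 3.78e-11 to 0.0328. The KO call held in 16 of 19 and was lost without clone A12 (0.77, adjusted p = 0.431), without the A12 Aza library (0.83, adjusted p = 0.0623) and without the A12 DMSO library of batch 1 (0.84, adjusted p = 0.0572). In F4 the ratio was 1.10 against the DMSO library of batch 2, and KO DMSO libraries of batch 2 had 1.23 to 1.6 times the ZAP70 level of their batch 1 partners. The difference of the Aza effect between KO and WT at 72 h was -0.00 (SE 0.38, adjusted p = 1).

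At 264 h, ZAP70 was 2.76 CPM (A7) and 3.21 CPM (C4) with Aza against 6.42 and 4.88 CPM with DMSO. In KO it was 2.81 CPM (F4) and 2.02 CPM (A12) with Aza against 2.23 and 3.51 CPM in F4 and 2.02 and 2.48 CPM in A12 with DMSO. The WT groups were apart with Aza below DMSO, whereas the KO groups overlapped. The fitted log2 fold change was -0.92 (SE 0.21) in WT and 0.25 (SE 0.22) in KO. In WT the effect thus moved by -1.95 (SE 0.28) between the time points. The WT DMSO level was 5.12 CPM ± 0.99 at 72 h and 5.65 CPM ± 1.09 at 264 h (SD, n = 2 each). Before treatment the WT level was 2.84 CPM ± 0.47, and in WT Aza at 264 h it was 2.98 CPM ± 0.32 (SD, n = 2 each).

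ZAP70 was most like ARHGEF19 (r = 0.899), a guanine nucleotide exchange factor, VARS2 (0.890), a mitochondrial valyl-tRNA synthetase, and MORN2 (0.869). At 72 h the fitted log2 fold change was 0.45 in KO and 0.46 in WT for ARHGEF19 and 0.33 and 0.29 for VARS2, and at 264 h both genes lay between -0.15 and -0.02. CD3E, CD3G and CD2, which mark T cells, stayed at or below 0.29 CPM. CD3D was at 0.53 to 61.4 CPM; the summed level of 9 lymphocyte markers was 10.2 to 62.1 CPM in KO and 0.99 to 4.61 CPM in WT libraries, and its part in the ZAP70 levels was not tested.

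COL2A1 (ENSG00000139219.13, chr12:48366748-48398269, minus strand, hg19) was lower with Aza at 264 h in each clone. It was 54.8 CPM in F4 with Aza against 69.0 and 87.8 CPM with DMSO, and 20.6 CPM in A12 with Aza against 29.6 and 42.7 CPM with DMSO. In WT it was 21.4 CPM (A7) and 26.8 CPM (C4) with Aza against 30.5 and 37.6 CPM with DMSO. The KO clones differed from each other by more than the treatment changed either, so the groups overlap across clones, while the WT groups did not overlap. The fitted log2 fold change was -0.43 (SE 0.09) in KO and -0.50 (SE 0.09) in WT.

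At 72 h COL2A1 was 78.4 CPM (F4) and 36.2 CPM (A12) with Aza against 86.2 CPM in F4 and 30.3 and 39.8 CPM in A12 with DMSO. In WT it was 39.0 and 41.4 CPM with Aza against 33.1 and 39.1 CPM with DMSO. The 72 h groups overlapped in both genotypes, and the log2 fold changes of 0.26 (SE 0.09, adjusted p = 0.0508) in KO and 0.16 (SE 0.09, adjusted p = 0.247) in WT were not called. The KO value passed the test in 5 of 19 alternatives, among them without the WT pre-treatment libraries (0.26, adjusted p = 0.0179). It ran from 0.19 to 0.63 over the 19. Batch 2 DMSO libraries of the KO clones had 1.27 to 1.44 times the COL2A1 level of batch 1. The raw 72 h ratios were 0.91 in F4 and in A12 against batch 2, and 1.2 in A12, 1.18 in A7 and 1.06 in C4 within batch 1. The summed level of 7 chondrocyte markers, most of it COL11A2, was 8.55 to 9.94 CPM with Aza and 6.01 to 8.14 CPM with DMSO in KO at 72 h, and 7.71 to 8.88 and 5.94 to 6.80 CPM in WT, so these ranges were apart in both genotypes. At 264 h they overlapped, at 6.13 to 7.71 and 4.94 to 8.02 CPM in KO and 5.26 to 6.28 and 5.80 to 6.35 CPM in WT. The part of these markers in the COL2A1 levels was not tested.

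PTPN5 (ENSG00000110786.13, chr11:18749475-18814268, minus strand, hg19) was also below DMSO at 264 h. At 264 h it was 26.4 CPM in F4 with Aza against 32.9 and 45.2 CPM with DMSO, and 14.6 CPM in A12 with Aza against 19.2 and 25.7 CPM with DMSO. In WT it was 16.4 CPM (A7) and 17.2 CPM (C4) with Aza against 28.3 and 25.0 CPM with DMSO. Every Aza library was below the DMSO libraries of its own clone. KO DMSO libraries of batch 2 had 1.34 to 1.37 times the PTPN5 level of their batch 1 partners, and all Aza libraries were of batch 1. The fitted log2 fold change was -0.35 (SE 0.10) in KO and -0.66 (SE 0.11) in WT, and at 72 h it was -0.00 (SE 0.11, adjusted p = 0.994) and 0.15 (SE 0.11, adjusted p = 0.377). The 72 h levels were 32.004 and 18.1 CPM in F4 and A12 and 30.1 and 22.6 CPM in A7 and C4 with Aza. With DMSO they were 43.9 CPM in F4, 18.1 and 24.7 CPM in A12 and 27.05 and 20.4 CPM in A7 and C4, so the groups overlapped. The 7 neuronal markers summed to at most 0.63 CPM in any library.

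Among 18390 genes, PTPN5 ranked 2 for likeness to COL2A1 and COL2A1 ranked 3 for likeness to PTPN5 (r = 0.900; 0.751 within clones and batches). OBSL1, a cytoskeletal linker, led both lists, with r = 0.949 to COL2A1 and 0.907 to PTPN5, followed by TTYH3 (0.887) for COL2A1 and by PPM1F (0.901), a protein phosphatase, for PTPN5. OBSL1 had log2 fold changes of -0.28 in KO and -0.29 in WT at 264 h and 0.27 in KO at 72 h. CLCA1 ran against both genes, with r = -0.882 to PTPN5 and -0.864 to COL2A1, and with r = -0.657 and -0.423 within clones and batches. These 3 genes were chosen by their 264 h differences, and the libraries behind r include those of Aza at 264 h. The correlations among them therefore follow in part from that choice and are given with no test. Clone F4 was high in COL2A1 and PTPN5 and low in CLCA1 beside the other clones.

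GPX8 (ENSG00000164294.9, chr5:54455946-54462899, plus strand, hg19) was below DMSO at 264 h in every clone. It was 5.52 CPM in F4 with Aza against 8.07 and 8.98 CPM with DMSO, and 7.24 CPM in A12 with Aza against 9.83 and 11.2 CPM with DMSO. In WT it was 2.20 CPM (A7) and 2.94 CPM (C4) with Aza against 4.31 and 5.28 CPM with DMSO. Aza and DMSO libraries did not overlap in either genotype, and the fitted log2 fold change was -0.53 (SE 0.16) in KO and -0.90 (SE 0.19) in WT. At 72 h the levels with Aza were 10.4 and 8.98 CPM in F4 and A12 and 5.29 and 5.43 CPM in A7 and C4. With DMSO they were 7.07 CPM in F4, 8.79 and 9.00 CPM in A12 and 4.85 and 4.60 CPM in A7 and C4. The KO groups overlapped, the WT groups did not, and the log2 fold changes of 0.35 (SE 0.17, adjusted p = 0.163) and 0.18 (SE 0.18, adjusted p = 0.551) were not called. The KO value was 0.04 without F4 and 0.69 without A12, and without the A12 Aza library it was called (0.63, adjusted p = 0.0396).

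GPX8 overlaps CDC20B on the other strand, which had at most 6 counts. Its level was most like that of SMCO4 (r = 0.932), FAT3 (0.921), an atypical cadherin, and HECW2-AS1 (0.899), and within clones and batches r was 0.807, 0.732 and 0.704. GPX8 ran against ESPN (r = -0.818, and -0.479 within clones and batches), which likewise follows in part from the choice of both genes by their 264 h differences. Within each condition that both genotypes share, KO and WT libraries did not overlap for either gene. Across conditions ESPN overlapped, with 4.09 CPM in F4 with Aza at 264 h against 2.44 CPM in A7 with DMSO at 72 h.

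Before treatment, GPX8 was 8.18 and 9.35 CPM in F4 and A12 against 3.39 and 2.61 CPM in the libraries labelled A7 and C4, and the groups did not overlap. ESPN was 1.24 and 0.59 CPM in F4 and A12 against 3.32 and 2.77 CPM in WT. In the 4 pre-treatment libraries, KO against WT gave a log2 fold change of 1.56 (SE 0.23, adjusted p = 0.0615) for GPX8 and -1.72 (SE 0.39, adjusted p = 0.184) for ESPN. None of the 7 genes was called there by edgeR, where 0.0543% of 16560 genes were called (0.0423% higher and 0.0121% lower); 2 had an unadjusted p under 0.05, and DESeq2 called 1, GPX8 (adjusted p = 6.04e-05). Without the F4 pre-treatment library edgeR called both GPX8 (1.65, adjusted p = 0.0126) and ESPN (-2.36, adjusted p = 0.0199). With Aza at 72 h the values were 0.85 for GPX8 (adjusted p = 0.129), -1.89 for ESPN (adjusted p = 0.161) and -0.93 for ZAP70 (adjusted p = 0.095), with 0 of 7 genes called by edgeR, where 0.19% of 16322 genes were called (0.11% higher and 0.0796% lower). There 4 had an unadjusted p under 0.05 and DESeq2 called 3. KO libraries of GPX8 stood above WT and of ESPN below WT in each of the 5 conditions that both genotypes share.

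In the Aza effect at 72 h, KO against WT, 0 of the 7 genes and 0% of all genes were called by edgeR and by DESeq2, and 1 gene, TNXB, had an unadjusted p under 0.05. In vehicle culture, KO DMSO at 72 h against pre-treatment called 0 of the 7 genes (11.4% of all genes, 4.65% higher and 6.7% lower), with ZAP70 alone at an unadjusted p under 0.05 (log2 fold change 0.59, SE 0.25, adjusted p = 0.124), and DESeq2 called 0. In WT, 2 genes were called higher and 1 lower, 3 in all, against 13.6% of all genes (6.41% higher and 7.23% lower): COL2A1 at -0.39 (SE 0.09, adjusted p = 0.00486), ZAP70 at 0.84 (SE 0.21, adjusted p = 0.00863) and GPX8 at 0.66 (SE 0.19, adjusted p = 0.0217). These 3 rest on the WT pre-treatment libraries that go against their labels. With those 2 libraries crossed between the clones in the fit 4 genes were called, with the libraries of these 2 groups alone or without the A7 DMSO library 0 were called, and without them the comparison cannot be made.

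For each gene, related genes were listed by textbook role, 122 in all, of which 76 were tested. Of these 26 (34.2%) were called at 72 h in KO and 25 (32.9%) in WT, beside 20.1% and 18.3% of all genes; the lists were drawn up with results of these data known, so these shares are descriptions. At 264 h, 0 of 76 were called in KO and 1 (1.32%) in WT, beside 0.0979% and 0.5% of all genes, so few calls could be expected among 76; 4 had an unadjusted p under 0.05 in KO, where DESeq2 also called 0. Among 12 tested actin bundlers and stereocilia genes, 4 were higher and 1 lower at 72 h in KO and 2 were higher and 2 lower in WT. VIL1, which encodes the microvillus protein villin, had a log2 fold change of 2.62 (SE 0.50, adjusted p = 0.000489) in WT at 72 h, MYO7A, a hair cell myosin, 1.87 (adjusted p = 0.00461) in KO and EPS8L2, an actin capping protein, 0.83 (adjusted p = 0.00816) in WT. At 72 h in WT, VIL1 was at 0.11 to 0.21 CPM with DMSO, near the floor, and at 0.91 to 1.15 CPM with Aza. At 264 h it was at 0.16 CPM ± 0.07 (SD, n = 2) in WT Aza against 0.13 ± 0.02 in DMSO. None of the 12 was called at 264 h in either genotype.

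Of 4 tested genes of the CLCA family and goblet cells, MUC1, a membrane mucin, was called higher at 72 h, with a log2 fold change of 1.02 (SE 0.17, adjusted p = 0.000137) in WT. Of 5 tenascins and elastic fibre genes, FBLN2, a fibulin, was called higher at 72 h (adjusted p = 0.00498 in WT). It was at 0.36 and 0.56 CPM in the WT Aza libraries and at 0 and 0.04 CPM, under the floor, with DMSO, so no fold is given. Of 7 fibrillar collagens, COL1A1, of bone and skin collagen, was called higher at 72 h, with 2.08 (SE 0.25, adjusted p = 1.4e-06) in KO. Of 8 cartilage genes, COL9A2 (0.96 in KO) and MATN1 (0.91 in WT) were called higher and RUNX2, a factor of bone formation, lower (-1.37 in KO, adjusted p = 0.000114). None of these was called at 264 h, where COL2A1 itself lay below DMSO. FBLN2 was still at 0.23 and 0.70 CPM with Aza in WT at 264 h, against 0 and 0.04 CPM with DMSO (adjusted p = 0.0616).

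Of 12 tested genes of antigen receptor signalling, 3 were higher and 3 lower at 72 h in KO and 4 and 3 in WT. BTK, a kinase of B and myeloid cells, rose by a log2 fold change of 0.75 (SE 0.07, adjusted p = 1.39e-08) in KO, and in WT it was 203 CPM ± 9.63 with DMSO and 314 CPM ± 13.0 with Aza (SD, n = 2 each). FYN, another tyrosine kinase that acts in T cells, rose by 1.16 (adjusted p = 0.015) in WT, and PLCG2, a phospholipase downstream of BTK, fell by 0.48 on the log2 scale (adjusted p = 0.000389) in WT. At 264 h BTK was at 203 CPM ± 3.99 with Aza and 199.8 CPM ± 5.33 with DMSO (SD, n = 2 each). Of 13 glutathione peroxidases and oxidative folding genes, GPX1, the cytosolic peroxidase, rose at 72 h (0.40, adjusted p = 0.000389, in KO) and PDIA4, a disulfide isomerase, fell in WT (-0.24, adjusted p = 0.0299).

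Of 15 tested MAP kinase phosphatases and substrates related to PTPN5, 7 were higher and 2 lower at 72 h in KO and 4 and 2 in WT. DUSP8 rose by a log2 fold change of 2.71 (SE 0.65, adjusted p = 0.00463) in WT. Its WT levels at 72 h were 0.11 to 0.26 CPM with DMSO, near the floor, and 1.08 to 1.39 CPM with Aza. DUSP4 rose by 1.22 (adjusted p = 0.0135) in KO, where its mean level was 0.85 CPM with DMSO and 1.26 CPM with Aza. The fitted value takes clone and batch into account and these means do not. In WT, DUSP4 was at -0.16 (adjusted p = 0.82) and was not called. DUSP6, which acts on ERK, fell by 1.16 on the log2 scale (SE 0.16, adjusted p = 6.98e-06) in KO. DUSP6 was at 19.2 CPM ± 5.58 (SD, n = 3) in KO DMSO and 8.82 ± 0.32 (SD, n = 2) in KO Aza at 72 h. The 1 listed gene called at 264 h was DUSP5, a nuclear ERK phosphatase, lower in WT (-0.76, SE 0.15, adjusted p = 0.0194), named after its values were seen.

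Within 100 kb of the 7 genes, 47 further genes were tested. At 264 h none was called in either genotype, by edgeR or by DESeq2, and 6 in KO and 2 in WT had an unadjusted p under 0.05. The shares of all genes called there were 0.0979% and 0.5%, so a count of 0 among 47 is near the background, and DESeq2 gave no adjusted p for 11 of the 47 in WT. The median log2 fold change was 0.04 in KO and 0.03 in WT. At 72 h, 13 of the 47 (27.7%) were called in KO and 8 (17.0%) in WT, beside 20.1% and 18.3% of all genes. Near COL2A1, TMEM106C was called higher at 72 h in KO (0.37, adjusted p = 0.00155) and VDR, the vitamin D receptor, was not called. Near ZAP70, C2orf92 was called higher in WT (0.64, adjusted p = 0.0146) and TMEM131 lower in both genotypes (-0.42 in KO and -0.36 in WT). Near GPX8, MCIDAS and CCNO were not called at 72 h or 264 h. Near PTPN5, IGSF22 was not called, and TMEM86A was called higher at 72 h in WT (1.40, SE 0.44, adjusted p = 0.0292), with at most 41 counts in a library.

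**Figure D4:**
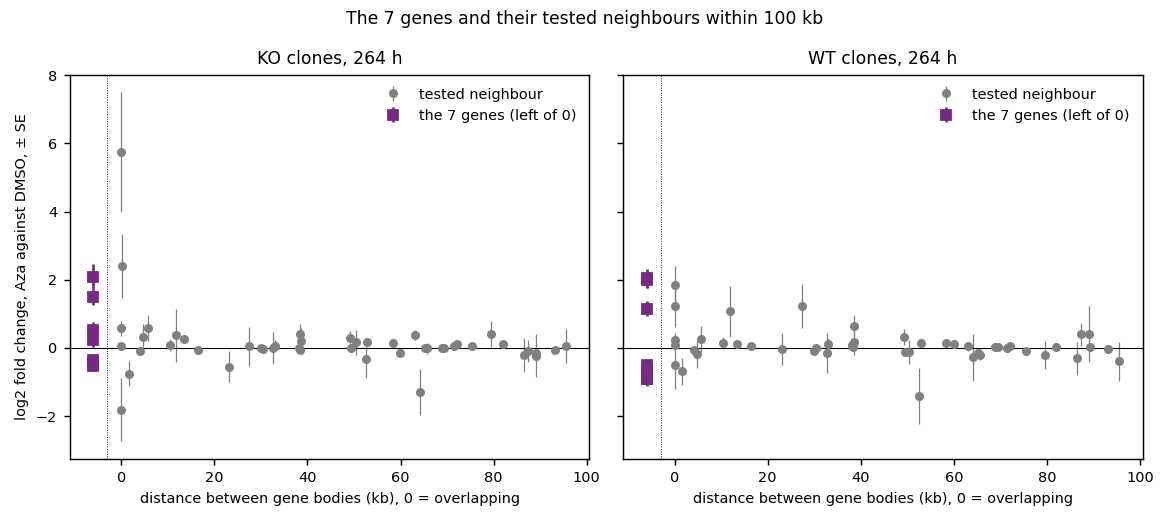
Log2 fold change of Aza against DMSO at 264 h (vertical axis, bars ± SE) of the 47 tested neighbours (grey) against the distance of their bodies from the nearest of the 7 genes in kb (horizontal axis), in KO (left) and WT (right), with the 7 genes themselves left of 0 in purple. The median of the neighbours was 0.04 in KO and 0.03 in WT, and the highest grey point, at 5.75 in KO, is ENSG00000231868, which had at most 21 counts.

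Over all 11 groups, the mean level of ESPN was highest in WT Aza at 264 h (17.4 CPM ± 4.48, SD, n = 2), which did not overlap the next group, and that of TNXB likewise (4.72 ± 0.76). CLCA1 was also highest there (14.0 ± 0.32) but overlapped KO Aza at 264 h (10.1 ± 9.69). ZAP70 was highest in WT Aza at 72 h (10.4 ± 0.79), apart from WT DMSO at 264 h (5.65 ± 1.09). COL2A1 and PTPN5 were highest in the KO time 0 libraries of batch 2 (69.6 ± 39.3 and 37.5 ± 13.8), GPX8 in KO Aza at 72 h (9.67 ± 0.98), and all 3 overlapped the next group. In WT Aza at 264 h, COL2A1, GPX8 and PTPN5 had their lowest means of all 11 groups (24.1 ± 3.80, 2.57 ± 0.52 and 16.8 ± 0.55), while ZAP70 ranked 7 of 11 there (2.98 ± 0.32).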

How the data were processed

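Libraries were made with a stranded mRNA kit, per the labels' protocols. Reads were trimmed with cutadapt and aligned with STAR 2.6.1d to hg19, per the submitters' processing notes. The authors deposited counts of read pairs over exons of GENCODE 19 genes, made with featureCounts 1.6.2 with no strand option, per the file headers. Gene names matched 51996 identifiers in the current table and 342 in GENCODE 29.

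Counts of the 25 libraries that passed quality control were fitted together with edgeR 4.0.16 in R 4.3.3 (TMM, filterByExpr, robust quasi-likelihood test, Benjamini-Hochberg over 18391 genes), with terms for group, clone within genotype and batch. KO was compared with WT in separate fits of 4 libraries with no clone term. A gene is called at adjusted p under 0.05. The clone term was kept because clone differences deviated together across groups in KO (r from 0.55 to 0.61); WT pre-treatment libraries deviated the other way (-0.52 to -0.48). CPM are counts scaled to a common library total, and likeness uses log2 CPM with a prior count of 2. The model was run on simulated counts that held no clone or batch effects, so they do not check how it handles these. No library pair agreed within sampling noise.

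The 7 genes, the 8 lists of related genes and the 7 marker lists were chosen with earlier results of these data known. Named besides the 7 genes are at most 3 called genes per list, the 2 nearest tested neighbours, the 3 genes of highest r and the markers; DUSP5, HES2, C4A and C4B fall outside this rule and were chosen after their values were seen. Alternatives were DESeq2 1.42.0, RLE factors, other filters, other sets of libraries and leaving out each library or clone; crossing the WT pre-treatment libraries was added after seeing the data.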

Additional observations from a re-analysis of the deposited data

How the results depend on the processing

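Each result was recomputed under 14 settings and with single libraries left out; no called result reversed, while the uncalled 72 h values of CLCA1, TNXB and PTPN5 in WT and of PTPN5 in KO changed sign in some settings. The 7 genes' median absolute log2 fold change at 264 h (0.78) and the median absolute change between time points (0.79) ranged from 0.58 without clone A7 to 0.89 without C4 and from 0.72 to 0.86 without the same clones. At 72 h in KO, 3 genes were called, but 1 with no replicate block (clone term), in batch 1 alone or without clone F4, 0 without A12, and 5 without the WT pre-treatment libraries, with them crossed, or without clone A7 or C4; single libraries left out gave 1 to 4, and the 1 call without the A12 Aza library is GPX8, with CLCA1, TNXB and ZAP70 all lost. At 72 h in WT, 1 became 3 in the compared arms alone. For DMSO against pre-treatment in WT, 3 became 0 without the replicate block, in the arms alone or with the failed library, and 0 to 3 without single libraries. KO against WT before treatment gave 1 with DESeq2, 2 without a filter and 0 to 2 without single libraries, and in Aza at 72 h 3, 3 and 0 to 1. Calls among the listed genes fell from 52 to 25 without the replicate block, 24 with the failed library, 32 without F4 and 20 without A12. The cause of these changes was not tested.

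Counts over all genes moved more. The KO and WT counts at 264 h, 18 and 92, were 33 and 149 with DESeq2, 172 and 353 without a filter, 1 and 4 without the replicate block, 131 and 1162 in the arms alone, 6 and 8 with the failed library, and 88 and 355 without the WT pre-treatment libraries; KO gave 8 in batch 1 alone. At 72 h, 3694 and 3366 became 1975 and 1733 without the replicate block and 2176 and 1089 with the failed library. KO against WT gave 275 and 351 genes with DESeq2 and 785 and 884 without a filter. WT at 72 h gave 5135 in the arms alone, 1909 without A7 and 2020 without C4, and KO gave 2273 in batch 1 alone, 1708 without F4 and 411 without A12. At 264 h, the crossed libraries gave 88 and 324, leaving out F4 gave 5 and 29, A12 0 and 15, A7 91 in KO and 55 in WT, and C4 90 in KO. DMSO against pre-treatment, 2088 in KO and 2509 in WT, became 763 and 854 without the replicate block and 763 and 0 in the arms alone; KO gave 706 in batch 1 alone, 3378 without the WT pre-treatment libraries, 302 without F4 and 103 without A12, and WT gave 306 with the failed library and 1613 without A12. The change between time points, 2418 in KO and 1257 in WT, became 902 and 402 without the replicate block, 594 and 202 with the failed library, 598 and 790 without F4 and 409 and 699 without A12; KO gave 876 in batch 1 alone, and WT gave 3033 in the arms alone, 2031 without the WT pre-treatment libraries, 555 without A7 and 530 without C4. KO against WT, 9 and 31, gave 2 and 8 with the stricter filter, and the difference of the Aza effect at 72 h, 0, gave 23 without a filter and 2 in the arms alone. Leaving out single libraries gave 5 to 92 and 6 to 46 genes at 264 h in KO and WT, and 49 to 463 for KO against WT before treatment.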
